A study of Gallus gallus with 20 samples.

Results

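Matricellular proteins are secreted into the extracellular matrix but do not build its fibres. They bind collagens, fibronectin, growth factors and cell surface receptors such as integrins and syndecans, and so tune how a cell adheres, migrates and receives signals. In skeletal muscle they are known for low levels at rest and high levels during development, injury and regeneration. The 10 genes described here are the spondins SPON1 and SPON2, the tenascins TNC and TNN, the thrombospondins THBS1, THBS2 and THBS4, and SPARC, SPP1 (osteopontin) and POSTN (periostin). They were taken by gene symbol from the 30108 genes of the count table, and each of the 10 symbols had 1 row.

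RNA was sequenced from proliferating primary muscle satellite cells (MuSCs, labelled as primary skeletal myoblasts) of the pectoralis major of Ross 308 broilers. The affected group came from birds with wooden breast, a myopathy with a hardened and fibrotic breast muscle, and the non-affected group from birds with fewer signs of it, which by the study's account can include mild changes in the muscle. The deposited description gives male donors of 36 days, and no treatment or genetic change separated the groups. By the study's methods the cells came either from male birds reared for the study or from abattoir fillets of broilers equally old, whose sex is not given, and the labels do not say which library came from which source. The cells were preplated to remove fast-adhering fibroblasts and expanded on a coat of entactin, collagen IV and laminin. They were used at the third to the fifth passage, so the values describe cultures and not muscle.

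The labels gave 11 non-affected libraries (NA61 to NA70) and 9 affected libraries (A4 to A85). For 4 bird numbers (A16, A76, NA61 and NA64) there was a further library labelled with the same number and a suffix B. The labels do not say how these pairs were made or whether both libraries came from the same bird. The p-values therefore measure the spread between these libraries, part of which may be technical. Each library held between 15425103 and 28113814 estimated counts. PAX7, the defining transcription factor of satellite cells, was present in every library, at a CPM (estimated counts scaled to the same library total) of 20.03 to 215 in the non-affected and of 34.6 to 130 in the affected libraries. Its median was 158 CPM in the non-affected and 70.8 CPM in the affected group. MYOD1, which marks committed myoblasts, had a median of 25.4 CPM in the non-affected group and 0.920 CPM in the affected group.

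HINTW, a gene of the W chromosome that only female birds carry, stood above 100 counts in 9 non-affected libraries (1316 to 5701 counts) and in the affected library A76 (876 counts). NA61 and NA61B had 0 counts of it, and the other 8 affected libraries had 9 or fewer. Libraries with these transcripts go against the male donors of the deposited description, and the W-chromosome class nearly coincides with the groups. A76 and A76B, whose bird numbers differ only in the suffix B, fell in different classes. For each difference between the groups, wooden breast and the W-chromosome class can only be told apart through A76, NA61 and NA61B.

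The 10 genes were selected on the contrast of affected with non-affected cultures, whose results were known, so the group differences below are a description of the genes and no independent evidence. Over all genes, 14524 passed a filter on low counts and were compared with edgeR's quasi-likelihood test. A gene was called at a Benjamini-Hochberg adjusted p of 0.05 or less and a log2 fold change of at least 1 in either direction. By this rule 1.4% of all tested genes were called higher and 1.89% were called lower in affected cultures. All 10 genes were tested, of which 2 were called higher (SPON2 and TNC) and 1 was called lower (TNN). The median log2 fold change of the 10 genes was 0.13, beside -0.01 for all tested genes. In these bulk libraries, fewer cells of a type and less RNA per cell cannot be told apart.

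**Figure D1:**
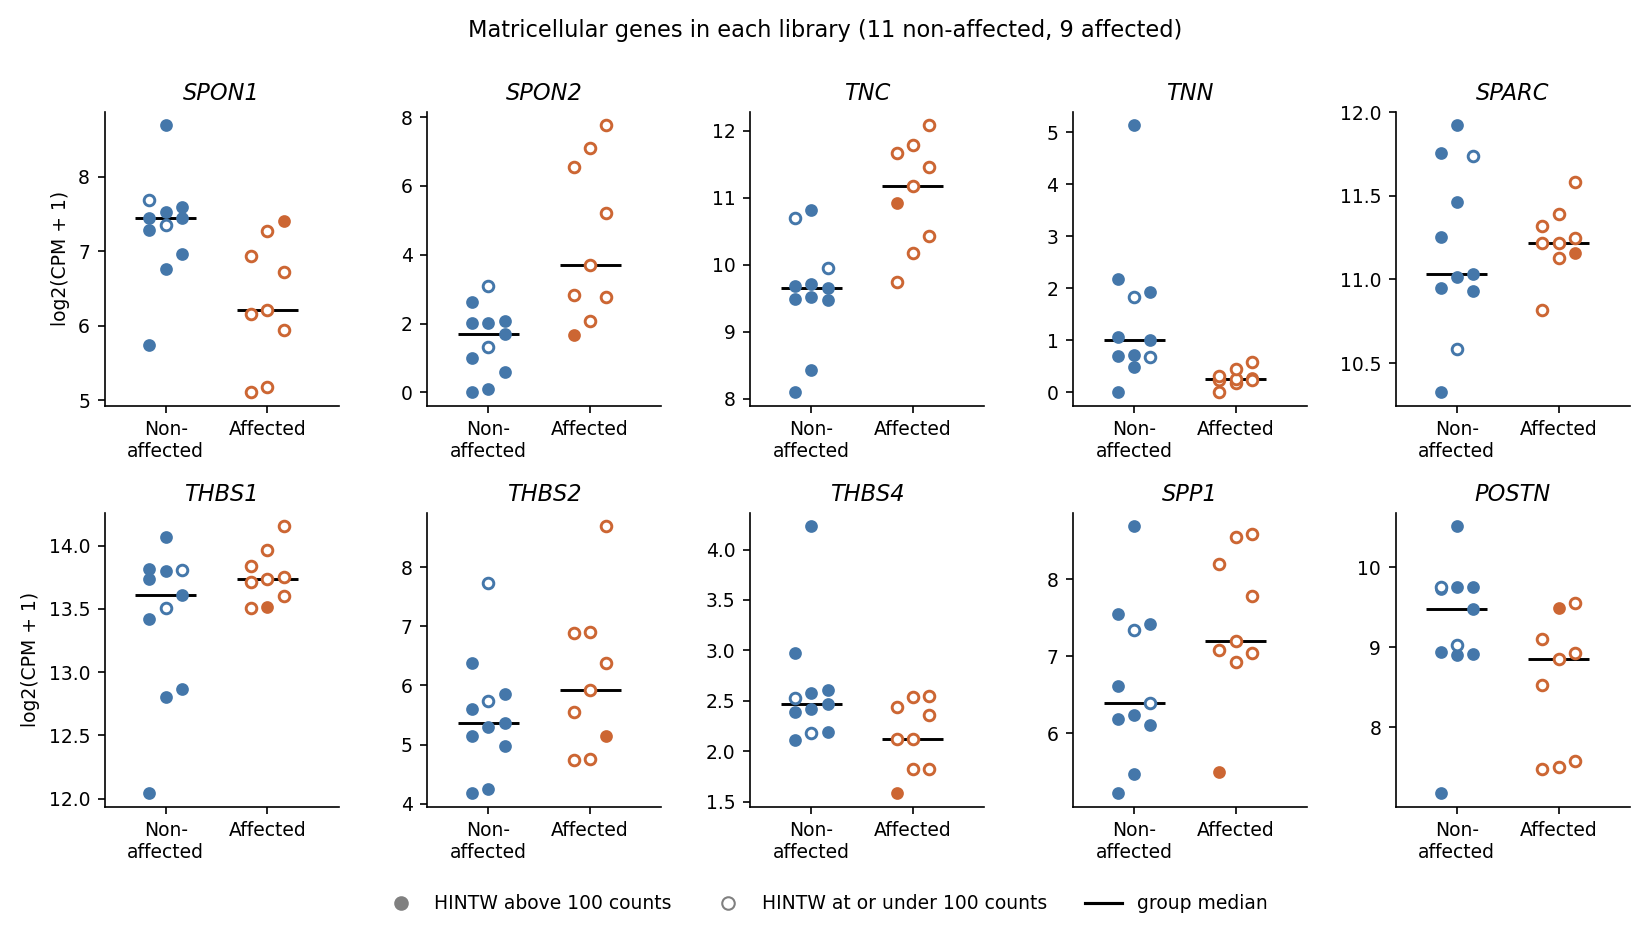
Level of each of the 10 genes in each library, as log2(CPM + 1), with non-affected libraries in blue, affected libraries in orange, a black line at each group median and filled points for libraries with more than 100 counts of HINTW. All 9 affected libraries lie above the non-affected median for TNC and below it for SPON1 and TNN, and the ranges of the groups overlap for every gene. TNN passed the filter on low counts through non-affected libraries alone, so its place below the median follows from that filter.

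SPON2 (spondin-2 or mindin, ENSGALG00010017676) lies on chromosome 4 from 84353762 to 84409207 in GRCg7b. It is known in mammals as a secreted protein that binds integrins and bacterial surfaces and takes part in innate immunity. In non-affected cultures it was close to silent, with a lowest value of 0 CPM (NA70), a median of 2.25 CPM and a highest value of 7.56 CPM (NA61B). The count of 0 in NA70 allows up to 0.140 CPM, a limit that covers counting error only. In affected cultures it ranged from 2.21 CPM (A76) over a median of 12.0 CPM to 215 CPM (A72).

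The affected cultures did not share 1 level of SPON2. It reached 215 CPM in A72, 137 CPM in A85, 92.9 CPM in A16B, 35.7 CPM in A4 and 12.0 CPM in A16, and these 5 libraries lay above every non-affected library. The remaining 4 were A73 (6.04 CPM), A76B (5.78 CPM), A79 (3.23 CPM) and A76 (2.21 CPM), all within the non-affected range. Of the 9 affected libraries, 8 were above the non-affected median.

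The fitted log2 fold change of SPON2 was 4.50 (standard error, SE, 0.89, edgeR adjusted p = 0.00800), a 22.6-fold difference. It follows the means, 56.7 ± 76.1 CPM (SD, n = 9) in the affected against 2.49 ± 2.31 CPM (SD, n = 11) in non-affected cultures, whereas the medians differed by 5.33-fold. Without A72 alone the log2 fold change was 3.90 (adjusted p = 0.0189). Library counts of the gene ran from 42 to 3274 in the affected and from 0 to 148 in the non-affected group. The neighbouring gene CTBP1, a transcriptional corepressor, had a log2 fold change of 0.04 (adjusted p = 0.828).

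SPON1 (spondin-1 or F-spondin, ENSGALG00010022875, chromosome 5, 6033473 to 6200104) was first known as a floor plate protein that guides axons. It lay lower in affected cultures, opposite to SPON2. Its lowest, median and highest values were 52.4 CPM (NA67), 173 CPM and 413 CPM (NA65) in the non-affected group. In the affected group they were 33.4 CPM (A72), 73.1 CPM and 169 CPM (A76). All 9 affected libraries lay below the non-affected median, yet only A4 and A72 were below the lowest non-affected library.

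The means of SPON1 were 91.2 ± 49.2 CPM (SD, n = 9) in the affected and 177 ± 89.7 CPM (SD, n = 11) in non-affected cultures. With a log2 fold change of -0.95 (SE 0.32, edgeR adjusted p = 0.0838) it was not called. It passed the rule once A76 was left out (log2 fold change -1.12, adjusted p = 0.0425) or NA67 was left out (-1.05, adjusted p = 0.0458).

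TNC (tenascin-C, ENSGALG00010028900, chromosome 17, 3320835 to 3419298) is a large hexameric glycoprotein that loosens cell adhesion and appears in regenerating muscle, healing wounds and tendon. It was higher in affected cultures. Non-affected libraries ran from 273 CPM (NA65) over a median of 805 CPM to 1809 CPM (NA66). Affected libraries ran from 854 CPM (A85) over a median of 2311 CPM to 4328 CPM (A79).

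All 9 affected libraries exceeded the non-affected median of TNC, and 6 of them exceeded the highest non-affected library. The 6 were A79 (4328 CPM), A16B (3524 CPM), A76B (3241 CPM), A16 (2810 CPM), A4 (2311 CPM) and A76 (1937 CPM). The other 3, A72 (1383 CPM), A73 (1160 CPM) and A85 (854 CPM), lay within the non-affected range. A72 and A85, with the highest SPON2 values, were thus among the affected libraries with the lowest TNC.

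The mean of TNC was 2394 ± 1175 CPM (SD, n = 9) in the affected and 883 ± 473 CPM (SD, n = 11) in non-affected cultures, with a log2 fold change of 1.44 (SE 0.33, edgeR adjusted p = 0.0144). The difference held in all 20 fits that left out 1 library, with log2 fold changes from 1.29 to 1.60. When A79 and A76B, the affected libraries with the highest summed macrophage markers, were left out together, it was 1.17 (adjusted p = 0.0692) and no longer called. Both were also among the libraries with the highest TNC (4328 and 3241 CPM), so leaving them out lowers the difference by itself. The same fit called 107 genes higher, against 203 with all libraries. Whether macrophage markers had a part in the TNC difference was not tested.

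TNN (tenascin-N, also called tenascin-W, ENSGALG00010011095, chromosome 8, 7073638 to 7097679) is a tenascin of developing bone and of tumour stroma. It was scarce in these cultures and lower in the affected group. Affected libraries held between 0 counts (A79) and 13 counts (A16B) of it, a range of 0 to 0.498 CPM with a median of 0.197 CPM. Non-affected libraries ran from 0 CPM (NA64B) over a median of 1.01 CPM to 34.1 CPM in NA70, with the next library at 3.53 CPM (NA62). The counts of 0 allow up to 0.188 CPM in NA64B and 0.173 CPM in A79.

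For TNN, 9 of the 11 non-affected libraries lay above every affected library. The fitted log2 fold change was -4.19 (SE 0.99, edgeR adjusted p = 0.0171), an 18.3-fold lower level, while the medians differed by 5.14-fold. That 9 non-affected libraries lay above the affected ones was a condition of the filter on low counts and is no further support. The gene passed this filter through those libraries alone. It was therefore untested in 9 of the 20 fits that left out 1 library, those without NA61, NA61B, NA62, NA64, NA65, NA66, NA67, NA68 or NA70. Without NA70 and without the filter, its log2 fold change was -2.51 (SE 0.60, adjusted p = 0.0293), an alternative chosen after the data were seen. NA70 also had the highest summed CPM of 11 myogenic markers (2520 CPM, against a non-affected median of 552 CPM), and the part of this in the TNN value was not tested.

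The thrombospondins are calcium-binding proteins that hold several cell surface and matrix partners together. THBS1 (ENSGALG00010021087, chromosome 5, 29117435 to 29133073), which is known to activate latent TGF-beta and to bind CD36 and CD47, was strongly expressed in every culture. Its values ran from 4215 CPM (NA64B) over a median of 12512 CPM to 17229 CPM (NA65) in the non-affected group, and from 11631 CPM (A4) over 13682 CPM to 18221 CPM (A73) in the affected group. The log2 fold change was 0.26 (SE 0.20, edgeR adjusted p = 0.418). The spread was wider among non-affected cultures, with a coefficient of variation of 33.4% against 15.2%.

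THBS2 (ENSGALG00010004760, chromosome 3, 41028074 to 41060583), an inhibitor of angiogenesis that also limits matrix metalloproteinase activity, differed more between libraries than between groups. It ran from 17.1 CPM (NA65) over 40.3 CPM to 212 CPM (NA61B) in the non-affected and from 25.6 CPM (A73) over 59.4 CPM to 413 CPM (A76B) in affected cultures. Its log2 fold change of 0.84 (SE 0.52, edgeR adjusted p = 0.322) dropped to 0.17 without A76B and rose to 1.30 without NA61B, and it was 0.61 (adjusted p = 0.287) without both.

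THBS4 (ENSGALG00010010122, chromosome Z, 22555228 to 22593798) is a thrombospondin of tendon and muscle matrix. It was low throughout, with values from 3.33 CPM (NA64B) over 4.54 CPM to 17.8 CPM (NA70) in the non-affected and from 1.997 CPM (A76) over 3.35 CPM to 4.86 CPM (A85) in the affected group. The log2 fold change was -0.69 (SE 0.29, edgeR adjusted p = 0.149), and without NA70 it was -0.35. NA70 thus held the highest non-affected value of both TNN and THBS4.

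SPARC (osteonectin, ENSGALG00010014390, chromosome 13, 12522360 to 12530589), a collagen-binding protein needed for ordered collagen fibres, had nearly the same mean in both groups. It was 2426 ± 343 CPM (SD, n = 9) in the affected and 2448 ± 842 CPM (SD, n = 11) in non-affected cultures. The log2 fold change was -0.01, with a 95% interval from -0.36 to 0.33. Affected libraries kept between 1804 CPM (A73) and 3065 CPM (A76B), inside the non-affected range of 1281 CPM (NA70) to 3879 CPM (NA65).

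SPP1 (osteopontin, ENSGALG00010003220, chromosome 4, 45233954 to 45237015) is a ligand of integrins and CD44 that is made by macrophages, bone cells and activated myoblasts. It ran from 36.4 CPM (NA70) over 83.0 CPM to 410 CPM (NA69) in the non-affected and from 44.3 CPM (A76) over 146 CPM to 384 CPM (A4) in affected cultures. In the affected group 8 of 9 libraries were above the non-affected median, but the highest value of all was non-affected. The log2 fold change of 0.69 (SE 0.42, edgeR adjusted p = 0.320) was not called.

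POSTN (periostin, ENSGALG00010002373, chromosome 1, 171879363 to 171912629) is a matrix protein of periosteum, tendon and activated fibroblasts. It ran from 143 CPM (NA64B) over 710 CPM to 1462 CPM (NA62) in the non-affected and from 176 CPM (A16) over 461 CPM to 749 CPM (A73) in affected cultures. A16, A4 (181 CPM) and A16B (190 CPM) formed the lower end of the affected group. The log2 fold change was -0.71 (SE 0.34, edgeR adjusted p = 0.205).

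Within the W-chromosome classes, the SPON2 values above the non-affected range all came from affected libraries without HINTW. These 8 libraries ran from 3.23 to 215 CPM, with a median of 23.8 CPM. The pair of non-affected libraries without HINTW had 1.51 CPM (NA61) and 7.56 CPM (NA61B), the 9 non-affected libraries with HINTW had 0 to 5.15 CPM, and A76, the affected library with HINTW, had 2.21 CPM. For SPON2, A76 therefore lay within the non-affected range, and NA61 and NA61B lay below the affected median of 12.0 CPM.

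TNC followed another order. The 9 non-affected libraries with HINTW had a median of 733 CPM and those without it had 991 CPM (NA61) and 1667 CPM (NA61B). A76 had 1937 CPM, above all of these and above the highest non-affected library, and the 8 affected libraries without HINTW had a median of 2561 CPM. For TNN the values were 0.210 CPM in A76, and 2.56 CPM (NA61) and 0.613 CPM (NA61B) in the non-affected libraries without HINTW, so that A76 lay inside the affected range and both NA61 libraries lay above it.

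With log2(CPM + 1) of HINTW as an additive term, 0 of the 14524 tested genes were called higher and 1 was called lower by edgeR. At an unadjusted edgeR p below 0.05 there were 371 higher and 478 lower. Because this term nearly coincides with the groups, lost calls do not tell wooden breast from the W-chromosome class. The log2 fold changes became 2.92 for SPON2 (SE 1.84, edgeR adjusted p = 0.953), 0.97 for TNC (SE 0.46, adjusted p = 0.848) and -2.65 for TNN (SE 1.20, adjusted p = 0.842). The direction turned for THBS1 (-0.01) and THBS2 (-0.40). With A76, NA61 and NA61B left out, SPON2 had a log2 fold change of 4.95 (adjusted p = 0.00374) and TNC of 1.65 (adjusted p = 0.00980). In that setting the W-chromosome class and the group are the same split and cannot be told apart.

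**Figure D2:**
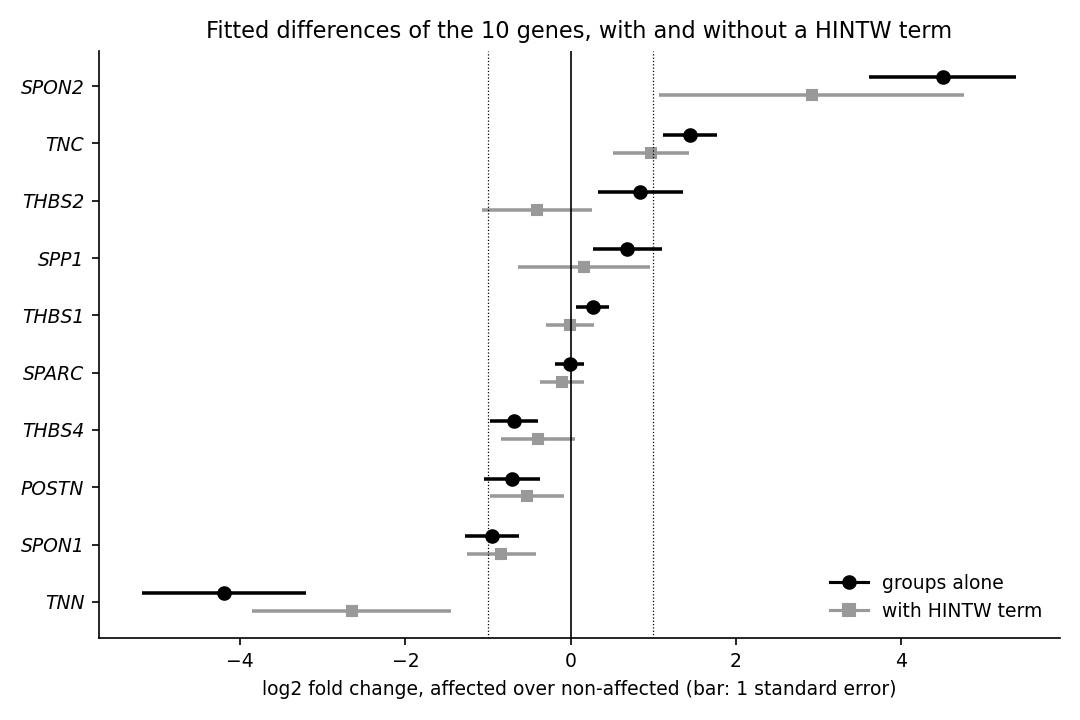
Fitted log2 fold change of each gene, affected over non-affected, with a bar of 1 standard error on each side, from the comparison of the groups alone (black circles) and with HINTW as an additive term (grey squares). Dotted lines mark a log2 fold change of 1 in either direction. The standard error of SPON2 grows from 0.89 to 1.84 with the added term, and THBS2 moves from 0.84 to -0.40.

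Libraries whose bird numbers differ only in the suffix B were not alike in every gene. SPON2 was 7.74-fold higher in A16B than in A16, while SPON1 (70.3 and 73.1 CPM), THBS2 (118 CPM in each) and SPARC (2688 and 2558 CPM) of this pair were close. THBS2 was 12.1-fold higher in A76B than in A76 and 4.07-fold higher in NA61B than in NA61, but 2.64-fold lower in NA64B than in NA64. TNC differed by at most 1.68-fold within a pair. Without the suffix B libraries the log2 fold changes were 4.81 for SPON2 (edgeR adjusted p = 0.0171), 1.38 for TNC (adjusted p = 0.0460) and -4.79 for TNN (adjusted p = 0.0225). In this fit too, TNN passed the filter on low counts through non-affected libraries alone.

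A few pairs of the genes also varied together within 1 group, a relation that the choice of the genes did not use. Across libraries of 1 group, 90 relations between pairs of the 10 genes were computed on log2 CPM, 45 in each group. By Spearman's rho, 4 passed at an adjusted p of 0.05 over the 90 relations, and by Pearson's r 0 did, with 10 at an unadjusted permutation p below 0.05. All p-values came from two-sided permutation tests over libraries, exact for the 9 affected and with 100000 random permutations for the 11 non-affected libraries.

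Among affected cultures SPON1 was low where SPON2 was high. Over 9 libraries rho was -0.95 (exact permutation p = 0.000353, adjusted p = 0.0159) and r was -0.85 (exact permutation p = 0.00522, adjusted p = 0.0784). Without the 2 libraries farthest from the median of SPON1, r was -0.73. The lowest SPON1 values, in A72 (33.4 CPM) and A4 (35.0 CPM), went with SPON2 values of 215 and 35.7 CPM, and the highest SPON1 values, in A76 (169 CPM) and A79 (153 CPM), went with 2.21 and 3.23 CPM. Among the 11 non-affected libraries, where SPON2 ran from 0 to 7.56 CPM, rho was -0.31 (permutation p = 0.356, adjusted p = 0.784). The difference between these 2 relations was not tested.

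Among affected cultures SPP1 was low where SPON1 was high. There rho was -0.90 for SPON1 and SPP1 (exact permutation p = 0.00203, adjusted p = 0.0456), with r at -0.86 (exact permutation p = 0.00205, adjusted p = 0.0618) and at -0.87 without the 2 farthest libraries. In non-affected cultures rho of this pair was -0.05 (permutation p = 0.881, adjusted p = 0.970), and the difference between the groups was not tested. For SPON2 and SPP1, rho was 0.83 in affected (exact permutation p = 0.00827, adjusted p = 0.124) and 0.78 in non-affected cultures (permutation p = 0.00614, adjusted p = 0.111), and neither passed the adjustment. The 4 affected libraries with the highest SPON2 (A72, A85, A16B and A4) were also the 4 with the highest SPP1, at 294, 372, 220 and 384 CPM.

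THBS2 and SPARC had almost the same order in affected cultures, with rho at 0.98 (exact permutation p = 5e-05, adjusted p = 0.00446) and r at 0.90 (exact permutation p = 0.000874, adjusted p = 0.0618). Without the 2 libraries farthest from the THBS2 median r was 0.94, and without the suffix B libraries rho was 0.96 over 7 libraries. In non-affected cultures rho of this pair was 0.08 (permutation p = 0.819, adjusted p = 0.970). THBS2 also followed TNC in non-affected cultures, with rho at 0.85 (permutation p = 0.00185, adjusted p = 0.0456) and r at 0.80 (permutation p = 0.00312, adjusted p = 0.0665), or 0.66 without the 2 farthest libraries. In affected cultures THBS2 and TNC had a rho of 0.78 (exact permutation p = 0.0172, adjusted p = 0.221) and an r of 0.70 (exact permutation p = 0.0345, adjusted p = 0.355). No difference between the groups in these relations was tested. SPON2 and TNC, the genes called higher, had a rho of -0.38 within affected cultures, which did not pass (exact permutation p = 0.312, adjusted p = 0.784). Libraries whose bird numbers differ only in the suffix B count as separate points in these relations.

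**Figure D3:**
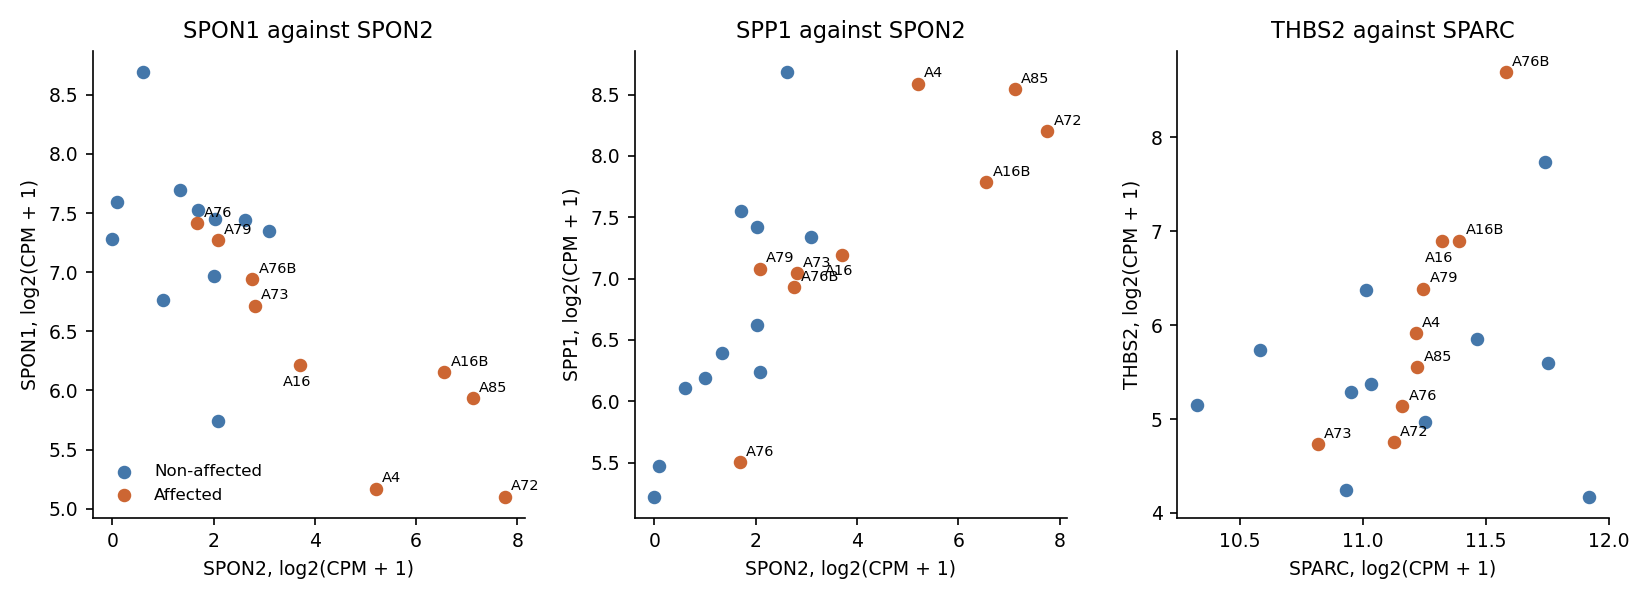
SPON1 and SPP1 against SPON2, and THBS2 against SPARC, each as log2(CPM + 1) with 1 point per library, non-affected in blue and affected in orange with library names. Among affected libraries SPON1 falls and SPP1 rises from A76 and A79 towards A72 and A85, and THBS2 orders with SPARC up to A76B (413 CPM of THBS2).

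The genes whose levels followed SPON2 most closely over all 20 libraries, by Spearman's rho of log2 CPM among tested genes with a symbol, were GAS6 (0.94), CITED2 (0.92), ZHX3 (0.91), C3orf70 (0.89) and LRRC2 (0.89). GAS6 is the secreted ligand of the TAM receptor kinases, and CITED2 is a transcriptional coregulator that is induced by hypoxia. These values are a description over libraries that share the group difference. Within affected cultures alone, rho with SPON2 ran from 0.63 for C3orf70 to 0.90 for GAS6. The affected libraries are among the 20 by which these genes were picked, so such values are no independent evidence. GAS6 had a log2 fold change of 1.71 (SE 0.44, edgeR adjusted p = 0.0255) and LRRC2 of 2.43 (SE 0.62, adjusted p = 0.0248), and both were called. GAS6 lost its call without A72 (adjusted p = 0.0555) or A85 (adjusted p = 0.0504), and LRRC2 without A16B (adjusted p = 0.0542) or A4 (adjusted p = 0.0531).

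Markers of cell types moved with the groups too. Of 11 tested myogenic markers 6 were called lower in affected cultures, with a summed CPM of 166 to 2520 (median 552) in the non-affected and 98.9 to 427 (median 211) in affected libraries. Of the markers not called, PAX7, PAX3, MYF6 and FGFR4 had negative log2 fold changes. ITGA7 alone had a positive one (0.73, edgeR adjusted p = 0.2415). The called markers with the smallest p were CDH15, MYOG, MYOD1 and CHRNA1, with log2 fold changes from -6.94 to -2.93. Each had its highest value in NA70, at 411, 340, 559 and 315 CPM in this order. Their non-affected medians were 24.2, 4.56, 25.4 and 19.1 CPM, beside affected medians of 3.72, 0.234, 0.920 and 6.23 CPM. The fold changes follow means that include NA70, and how far they rest on this library was not tested. MYOG stayed at or below 0.522 CPM in every affected library and, like TNN, passed the filter on low counts through non-affected libraries alone. Of 12 tested macrophage markers 5 were called higher (CSF1R, PTPRC, CYBB, LAPTM5 and TREM2). The macrophage markers had a summed CPM of 38.0 to 104 (median 57.4) in the non-affected and 79.1 to 255 (median 126) in affected libraries. Of the 12, IRF8 alone had a negative log2 fold change (-0.36, edgeR adjusted p = 0.105). CSF1R, CYBB, LAPTM5 and TREM2 were highest in A79, at 21.5, 9.18, 23.8 and 11.4 CPM in this order. Their affected medians were 1.46, 1.38, 9.97 and 5.32 CPM, and how far these calls rest on A79 was not tested. None of the 16 listed macrophage markers was at 0 in every library, while C1QA, MARCO and MRC1 stayed at or below 2.31, 1.15 and 0.577 CPM.

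These sums sat differently beside the individual genes. A79 had the highest macrophage sum (255 CPM) and the highest TNC (4328 CPM), and A76B had the next macrophage sum (179 CPM) and 3241 CPM of TNC. SPON2 was low in the same libraries, at 3.23 and 5.78 CPM. A85 and A4, with the lowest macrophage sums of the affected group (79.1 and 79.5 CPM), had the highest SPP1 of that group and SPON2 values of 137 and 35.7 CPM. A73, with a macrophage sum of 80.6 CPM, had 131 CPM of SPP1 and 6.04 CPM of SPON2. A16B and A72 had higher sums (130 and 128 CPM), with SPON2 at 92.9 and 215 CPM. Their SPP1 was 220 and 294 CPM. Without A79 and A76B the log2 fold change of SPON2 was 4.83 (edgeR adjusted p = 0.0178). The part of the myogenic and macrophage markers in the differences of the 10 genes was not tested.

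**Figure D4:**
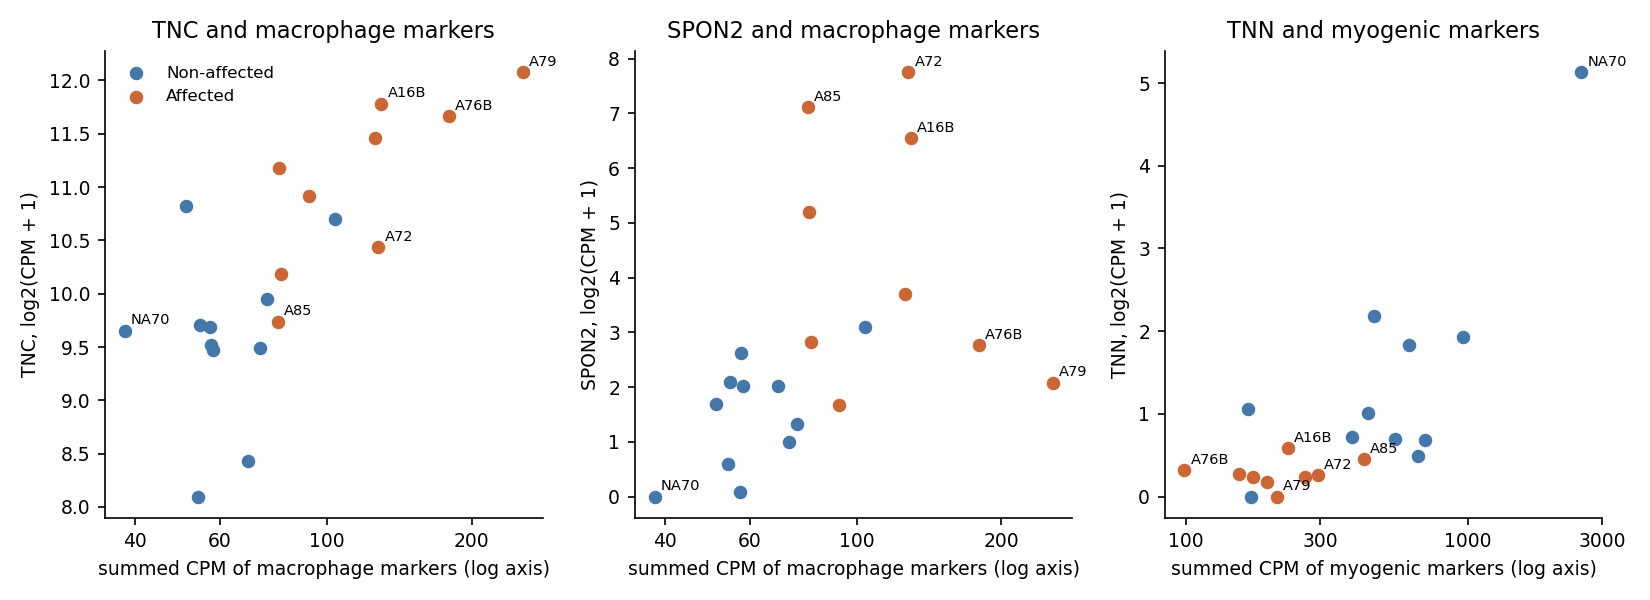
Summed CPM of macrophage markers (log axis) against TNC and SPON2, and of myogenic markers (log axis) against TNN, each gene as log2(CPM + 1) with 1 point per library, non-affected in blue and affected in orange. A79 and A76B lie at the upper right for TNC but low for SPON2, and NA70 stands apart at 2520 CPM of myogenic markers and 34.1 CPM of TNN.

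Of the other lists of cell types, fibroblast and mesenchymal progenitor markers had 1 gene called, COL3A1, which was lower, among 11 tested, and their summed CPM was 3739 to 7805 in non-affected and 3963 to 6821 in affected libraries. Endothelial markers had 1 of 5 tested genes called lower by edgeR, TEK, and 0 by limma-voom. TEK reached 92.9 CPM in NA65, against a median of 1.005 CPM over the non-affected group and 0.366 CPM over the affected group. Its log2 fold change of -4.04 (adjusted p = 0.0410) became -1.51 (adjusted p = 0.166) without NA65, an alternative added after the data were seen. By edgeR 0 genes were called among 2 tendon, 5 smooth muscle and pericyte, 4 cartilage and bone, 6 adipocyte and 2 Schwann cell markers, with 2 lower cartilage and bone and 2 higher adipocyte markers at an unadjusted p below 0.05. Among these lists DESeq2 called 1 cartilage and bone marker lower and 1 Schwann cell marker higher, and limma-voom called 0. The tendon markers had a summed CPM of 96.7 to 370 in the non-affected and 218 to 358 in affected libraries, mostly from MKX (medians 128 and 123 CPM) and EGR1 (medians 124 and 135 CPM), while SCX and TNMD stayed at or below 1.88 and 0.299 CPM.

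Further matricellular genes and related lists stand beside shares of 1.4% called higher and 1.89% called lower among all tested genes. Of 23 tested members of the CCN, fibulin, SMOC, SPOCK and related families, 0 were called higher and 1 lower by edgeR, with a median log2 fold change of -0.10. At an unadjusted p below 0.05 there were 2 higher and 5 lower, and DESeq2 called 1 higher and 3 lower and limma-voom 1 in each direction. The gene called was FBLN5 (fibulin-5), which is needed to assemble elastic fibres. Its level was 1.09 ± 0.826 CPM (SD, n = 9) in the affected and 9.62 ± 7.58 CPM (SD, n = 11) in the non-affected cultures, with a log2 fold change of -3.12 (SE 0.55, edgeR adjusted p = 0.00453). This call held in all 20 fits without 1 library.

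Other genes of this list, chosen after their values were seen, lay outside the rule but had log2 fold changes beyond 1 in either direction. COMP, the thrombospondin of cartilage and tendon, had 288 ± 281 CPM (SD, n = 9) in the affected and 64.5 ± 76.3 CPM (SD, n = 11) in non-affected cultures (log2 fold change 2.16, SE 0.70, edgeR adjusted p = 0.0696). SMOC2, a SPARC-related protein whose gene neighbours THBS2, had 6.46 ± 7.71 CPM (SD, n = 9) in the affected and 81.7 ± 163 CPM (SD, n = 11) in non-affected cultures (log2 fold change -3.66, SE 1.11, edgeR adjusted p = 0.0520). Its medians were closer, at 3.20 CPM in affected and 8.02 CPM in non-affected cultures, and the highest value was 530 CPM in NA65. TGFBI (log2 fold change -1.56, SE 0.52, edgeR adjusted p = 0.0793) and EDIL3 (-1.13, SE 0.54, adjusted p = 0.201) were also lower without being called.

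Among 26 tested receptors of matricellular proteins 1 was called higher and 0 lower by edgeR, with a median log2 fold change of 0.09. DESeq2 and limma-voom gave the same counts, and at an unadjusted p below 0.05 there were 3 higher and 2 lower. The gene called by edgeR was ITGB5, the integrin subunit that pairs with alpha V to bind osteopontin, periostin and vitronectin. ITGB5 had 373 ± 184 CPM (SD, n = 9) in the affected and 169 ± 80.8 CPM (SD, n = 11) in non-affected cultures, with a log2 fold change of 1.14 (SE 0.33, edgeR adjusted p = 0.0418). The call was lost without any 1 of 13 libraries, namely A16, A16B, A4, A72, A76B, A79, A85, NA61, NA62, NA65, NA67, NA68 or NA70, with adjusted p-values up to 0.0862.

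CD44, a receptor of osteopontin, and EGFR, which tenascin-C repeats can bind in mammals, had adjusted p-values of 0.0454 and 0.0262 but log2 fold changes of only -0.36 and 0.71, below the size required. They were the other receptors of the list with an adjusted p of 0.05 or less.

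Of 19 tested matrix partners and processing enzymes 0 were called higher and 1 lower by edgeR, as with DESeq2 and limma-voom, and the median log2 fold change was 0.33. At an unadjusted p below 0.05 there were 4 higher and 3 lower. COL3A1, the chain of collagen III, had 709 ± 253 CPM (SD, n = 9) in the affected and 1555 ± 669 CPM (SD, n = 11) in non-affected cultures (log2 fold change -1.13, SE 0.31, edgeR adjusted p = 0.0336). It lost its call without any 1 of 11 libraries (A16, A16B, A4, A72, A76B, A85, NA61, NA62, NA67, NA68 or NA70), with adjusted p-values up to 0.0633.

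Of 11 tested TGF-beta ligands and readout genes 1 was called higher and 0 lower by edgeR, with a median log2 fold change of 0.18. DESeq2 gave the same counts, limma-voom called 1 in each direction, and at an unadjusted p below 0.05 there were 1 higher and 2 lower. SMAD7, an inhibitory SMAD that TGF-beta signalling induces, had 166 ± 52.1 CPM (SD, n = 9) in the affected and 64.9 ± 24.9 CPM (SD, n = 11) in non-affected cultures, with a log2 fold change of 1.36 (SE 0.24, edgeR adjusted p = 0.00461). It was called in all 20 fits without 1 library. With HINTW as an additive term, FBLN5 (-3.25, adjusted p = 0.189), ITGB5 (0.72, adjusted p = 0.984), COL3A1 (-1.25, adjusted p = 0.525) and SMAD7 (0.82, adjusted p = 0.775) were no longer called.

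**Figure D5:**
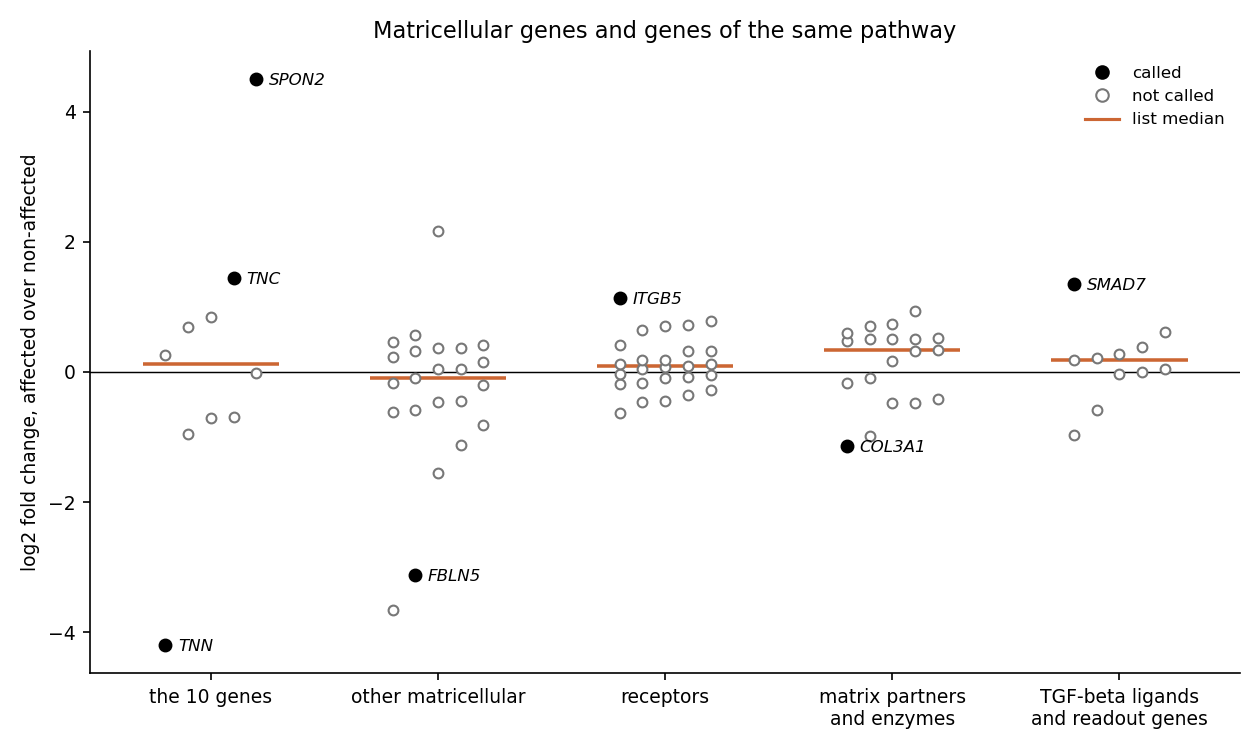
Log2 fold change, affected over non-affected, of every tested gene of the 10 described here and of 4 related lists, with called genes as named black points, other genes as open points and the median of each list as an orange line. Each related list has 1 called gene, and the list medians lie between -0.10 and 0.33.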

How the data were processed

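The authors trimmed reads with Trim Galore 0.6.7, aligned them to GRCg7b with STAR 2.7.9a and quantified them with Salmon 1.10.1, and deposited estimated counts per gene (expected counts), not normalized between samples. Here the estimated counts were rounded, filtered with filterByExpr, normalized by TMM and tested in edgeR 4.0.16 (R 4.3.3) without covariates. The standard error is the log2 fold change divided by the square root of F. CPM used the TMM factors, 3 counts set the limit for a count of 0, and positions came from the RefSeq annotation of GRCg7b by symbol. Python 3.11.15 drew the figures.

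The members and lists were chosen with earlier results of these data known. The rule for named genes took the 10 members, every called gene of the other lists (4 at most per list, by p), HINTW and the 5 genes closest to SPON2. Genes named outside it, chosen after their values were seen, are COMP, SMOC2, TGFBI, EDIL3, CD44, EGFR and the neighbour CTBP1. Cell type markers named in this way are PAX7, PAX3, MYF6, FGFR4, ITGA7, PTPRC, IRF8, C1QA, MARCO, MRC1, MKX, EGR1, SCX and TNMD. Alternatives used DESeq2 1.42.0, limma-voom (limma 3.58.1), other filters and normalizations, summed or omitted suffix B libraries, a HINTW term and omitted libraries. The study excluded unnamed non-affected samples as outliers. The sizes it gives for both groups after this exclusion differ from those of the labels. All 20 labelled libraries were kept, so the excluded samples may be among the non-affected ones. The edgeR step was tested on simulated data.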

Additional observations from a re-analysis of the deposited data

Results flagged for a closer look

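THBS2 in the affected library A76B, at 413 CPM, stood apart from the other 8 affected libraries by Dixon's test, with a gap to the next library (A16B, 118 CPM) that made up 0.761 of the whole range against a critical value of 0.493. The affected group was tested in this way for each of the 10 genes. Chance marks about 1 in 20 such groups where values are normally distributed. The test used CPM without a log transform, and the log scale was not tested. The non-affected group, with 11 libraries, was not tested.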

How the results depend on the processing

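SPON2 kept its call in 10 of 11 other settings and in all 20 fits without 1 library (3.90 to 4.83), and TNC in 9 of 11 and all 20. No paired analysis was possible because the groups share no bird number. TNN was not tested with a CPM of at least 1 in 9 libraries, nor without A76, NA61 and NA61B, and DESeq2 gave it a log2 fold change of -2.47.

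Genes called higher numbered 484 without a fold threshold, 472 with DESeq2, 326 with limma-voom, 116 without suffix B libraries, 0 with the HINTW term, 107 without A79 and A76B, 307 without A76, NA61 and NA61B, and 119 to 350 without 1 library. Genes called lower numbered 422 without a fold threshold, 444 with DESeq2, 1 with the HINTW term and 137 without A79 and A76B. Members called higher numbered 0 with the HINTW term and 1 without A79 and A76B. Members called lower numbered 0 under the CPM filter, with the HINTW term, without A79 and A76B and without A76, NA61 and NA61B, and 0 to 2 without 1 library (2 without A76, where SPON1 joined TNN). Without A79 and A76B, TNN had -4.06 (adjusted p = 0.0584).

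Directions turned with the HINTW term for THBS1 (-0.0065) and THBS2 (-0.4023), and for SPARC with limma-voom (0.0269), without A76, NA61 and NA61B (0.0014) and in 6 fits without 1 library (range over all 20 from -0.0805 to 0.0736). The causes were not tested. SPON1 passed with DESeq2 (adjusted p = 0.0382) and limma-voom (adjusted p = 0.0485) by adjusted p but, like POSTN with limma-voom (adjusted p = 0.0395), not by fold size. Low counts limit TNN, THBS4 and SPON2 in non-affected cultures, and MYOG in affected cultures.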
